A study of Mus musculus with 12 samples.

Results

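The 32 genes described here encode interleukin ligands, with the interleukin 1 receptor antagonist Il1rn counted among them, and were chosen as a fixed list of symbols. All 32 were present among the 34547 genes of the count table. The libraries came from thymic epithelial cells (TEC) of mice, with 3 libraries in each of 4 groups: medullary TEC (mTEC) and cortical TEC (cTEC) of wild-type (WT) mice and of Aβ0/0 mice. Aβ0/0 mice lack MHC class II (MHCII) molecules through disruption of the gene of the Aβ chain, H2-Ab1, in every cell of the body, and the WT controls were C57BL/6 mice. Each library was made from the thymi of 5 to 10 mice of 4 to 6 weeks of age, pooled, depleted of CD45+ cells and sorted as EpCAM+CD45-Ly51+UEA1- cTEC or EpCAM+CD45-Ly51-UEA1+ mTEC. Polyadenylated RNA was amplified with a low-input kit before sequencing. The libraries answer where each interleukin gene is expressed in the thymic epithelium and whether its expression differs when MHCII is missing.

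Interleukins are secreted proteins through which leukocytes and epithelial cells signal to each other. They are grouped by the receptor chains they use and by their folds: the IL-1 family, the cytokines of the common gamma chain and the common beta chain, the heterodimeric IL-12 family, the IL-10 family and the IL-17 family. In the thymus, cTEC support early thymocytes with cytokines, whereas mature mTEC transcribe many genes that are otherwise restricted to other tissues, partly under the control of Aire, so that an interleukin transcript in mTEC can be either a signal or a self-antigen.

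The libraries held 21710319 to 36139815 estimated counts. Levels are given as TPM, the transcript abundance scaled by transcript length and by library. H2-Ab1 lay between 11506 and 11966 TPM in WT mTEC, 2469 and 3541 TPM in Aβ0/0 mTEC, 9055 and 9640 TPM in WT cTEC and 3153 and 3956 TPM in Aβ0/0 cTEC, so the disrupted gene was lower in all 6 Aβ0/0 libraries but still transcribed. The 8 cTEC markers summed to 4026 TPM or more in every cTEC library and to 839 TPM or less in every mTEC library. The 9 mTEC markers summed to 2702 TPM or more in mTEC and to 2006 TPM or less in cTEC, with Ccl21a at 0 throughout. Aire, the regulator of promiscuous gene expression, measured 626, 275 and 243 TPM in WT mTEC, 111, 56.0 and 65.2 TPM in Aβ0/0 mTEC, and at most 7.87 TPM in cTEC.

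Interleukin transcripts were concentrated in WT mTEC. In each WT mTEC library 30 or 31 of the 32 genes had more than 3 counts, compared with 14 to 19 in Aβ0/0 mTEC, 14 or 15 in WT cTEC and 11 to 17 in Aβ0/0 cTEC. The same count over all genes was 21193 to 21401 in WT mTEC and 15493 to 18121 in the other 9 libraries, so more genes in all were detected in WT mTEC. In the study's list of sorting yields, each WT mTEC sort also gave more cells than any sort of the other groups. The part of the yield in detection was not tested. The mean TPM was highest in WT mTEC for 25 of the 32 genes, in Aβ0/0 mTEC for 2 (Il10 and Il18), in WT cTEC for 2 (Il33 and Il17d) and in Aβ0/0 cTEC for 2 (Il34 and Il16). Il20, an IL-10 family member, was at 0 in all 12 libraries. Of the 27 genes tested over all libraries, 17 had every WT mTEC library above the other 9, which was the case for 11.4% of all genes tested. Il1b, Il3, Il6, Il12b, Il22 and Il24 had at most 4 counts in any of the other 9. They passed the filter on low counts through WT mTEC alone, so this order was set for them in advance. TPM is scaled by transcript length, so the levels given here may be compared between genes.

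**Figure D1:**
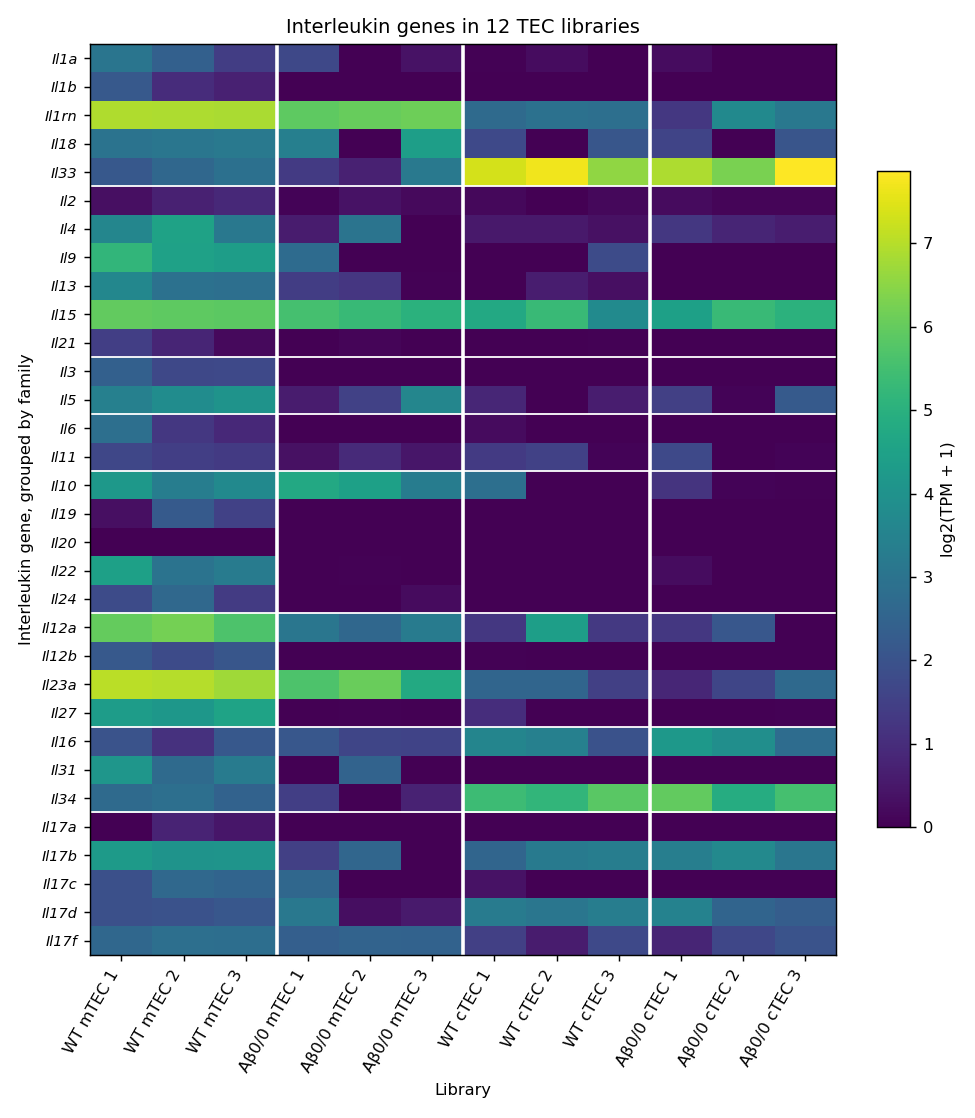
Level of each of the 32 interleukin genes (rows, grouped by family) in each of the 12 libraries (columns), as log2(TPM + 1), with the scale at the right. Colour is spread over most rows in the 3 WT mTEC columns, whereas in cTEC the high values are those of Il33, Il34 and Il15.

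Of the 32 genes, the 8 with the highest mean TPM in WT mTEC were, in order, Il23a, Il1rn, Il12a, Il15, Il9, Il27, Il17b and Il4. Il23a at 121 ± 13.2 TPM (SD, n = 3) and Il1rn at 118 ± 2.83 TPM did not differ beyond their spread, nor did Il12a at 61.7 ± 11.7 TPM and Il15 at 59.1 ± 1.92 TPM. In Aβ0/0 mTEC the order began with Il1rn at 64.3 ± 5.45 TPM, Il23a at 47.6 ± 19.9 TPM, Il15 at 38.6 ± 7.18 TPM and Il10 at 18.6 ± 8.72 TPM. In both cTEC groups the first places were held by Il33, Il34 and Il15, with Il33 at 154 ± 56.6 TPM in WT and 142 ± 80.2 TPM in Aβ0/0. Il7, the thymocyte growth factor that is not among the 32 genes, measured a mean of 168 TPM in WT cTEC and 224 TPM in Aβ0/0 cTEC, above Il33 in both.

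Between WT and Aβ0/0 mTEC, 6 of the 27 interleukin genes tested differed and all 6 were higher in WT: Il12a, Il12b and Il27 of the IL-12 family, Il22 and Il24 of the IL-10 family, and Il3 (edgeR quasi-likelihood test, Benjamini-Hochberg adjusted p = 0.0352 for 5 of them and 0.036 for Il24). Among all genes tested, 5.32% were called higher in WT mTEC and 0.338% higher in Aβ0/0 mTEC. Il3, Il12b, Il22, Il24 and Il27, and Il1b and Il6 below, had at most 1 count in each Aβ0/0 mTEC library. They passed the filter on low counts through WT mTEC alone, so higher in WT was the only direction open to them. An unadjusted p under 0.05 was reached by 10 of the 27, all higher in WT, against 15.3% of all genes in either direction, and DESeq2 called these same 10, adding Il1b, Il1rn, Il6 and Il23a, against 7.27% of all genes called higher in WT. The TPM of the groups did not overlap for 19 of the 27, all higher in WT, where 19.4% of all genes tested were separated in that direction and 6.33% in the other. Where a fold between 2 groups is given with an adjusted p above 0.05, the unadjusted p was under 0.05 and the groups did not overlap. The number of calls moved over all genes at once. Of all genes 1054 were called, but none, and so no interleukin gene, without WT mTEC library 1, 2 or 3 or with the replicate number as a block. Without Aβ0/0 mTEC library 3 there were 13 calls over all genes and 0 among the interleukin genes, without library 2 there were 83 and 2 (Il12a and Il27), and without library 1 there were 2377 and 9. With all 12 libraries fitted together 20 genes were called, and among genes with a mean of at least 10 counts 11 were called, in both cases with no interleukin gene.

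Between WT and Aβ0/0 cTEC, none of the 13 interleukin genes tested was called by edgeR or DESeq2 and none reached an unadjusted p under 0.05 in edgeR, against 0.0194% of all genes called and 2.16% at the unadjusted level. The TPM of WT and Aβ0/0 cTEC overlapped for all 13, whereas 3.46% of all genes tested were separated with WT higher and 3.47% with Aβ0/0 higher. The genotype effect in mTEC minus that in cTEC was called for none of 27 genes by edgeR, against 0.0103% of all genes, and for Il22 by DESeq2, which called 277 genes in all where edgeR called 2. In edgeR it reached an unadjusted p under 0.05 for Il12b (adjusted p = 0.42), for Il22 (0.368) and for Il34 (0.706), compared with 6.9% of all genes. A difference in the genotype effect between mTEC and cTEC was therefore not shown for any of these genes by that test, and for Il1b, Il3, Il6, Il24 and Il31 the fitted term had a standard error of 5268 or more on the log2 scale, so these 5 of the 27 were in effect not tested.

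Between mTEC and cTEC of WT mice, 19 of 27 genes differed, 17 of them higher in mTEC and 2, Il33 and Il34, higher in cTEC. Of the 17, Il1b, Il3, Il22, Il24 and Il31 were at 0 in WT cTEC and passed the filter on low counts through WT mTEC alone, so only that direction was open to them. The background was 18.0% of all genes higher in mTEC and 8.81% higher in cTEC. Among markers, 7 of 9 mTEC and 2 of 8 tuft cell genes were called higher in mTEC. So were 6 of 12 of dendritic cells and macrophages, 3 of 7 of granulocytes, 4 of 5 of mast cells and 2 of 5 of B cells. Called higher in cTEC were 7 of 8 cTEC, 9 of 14 thymocyte and 4 of 7 fibroblast markers. The part of these cells in the interleukin levels was not tested. The groups did not overlap in TPM for 22 interleukin genes with mTEC higher and 3 with cTEC higher (Il17d, Il33 and Il34), against 28.4% and 15.9% of all genes. Without WT mTEC library 1, 2 or 3, 11, 12 and 12 of the 19 calls were kept and 2, 0 and 1 other interleukin genes were called, beside 3395, 3403 and 3510 calls over all genes in place of 4997. The calls that ended were each time those of Il5, Il6, Il12a, Il13, Il15, Il17c and Il27, and for library 1 also that of Il1a; without WT cTEC library 1 those of Il12a and Il15 ended, and without WT cTEC library 2 that of Il6. With all 12 libraries fitted together 9 calls were left (2760 over all genes), and with the pool of origin as a block 15 were left (3820 over all genes) and those of Il1b (adjusted p = 0.0535), Il3 (0.056), Il13 (0.0507) and Il17c (0.0663) ended.

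Between mTEC and cTEC of Aβ0/0 mice, 3 of 14 genes differed: Il1rn and Il23a were higher in mTEC and Il33 was higher in cTEC, where 3.45% of all genes were called higher in mTEC and 2.15% higher in cTEC. The groups did not overlap for 5 of the 14 with mTEC higher (Il1rn, Il10, Il12a, Il17f and Il23a) and for 4 with cTEC higher (Il16, Il17b, Il33 and Il34), against 12.7% and 16.3% of all genes. None of the 3 calls was kept without Aβ0/0 cTEC library 2 or Aβ0/0 mTEC library 1 or 2, and 1 was kept in each other case: Il1rn without Aβ0/0 cTEC library 1, Il23a without Aβ0/0 cTEC library 3 and Il33 without Aβ0/0 mTEC library 3. Il10 was gained without Aβ0/0 cTEC library 1 and Il34 without Aβ0/0 mTEC library 2, while the calls over all genes went from 878 to between 338 and 456. With the pool as a block the call of Il23a ended (adjusted p = 0.0697).

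All 4 genes of the IL-12 family were higher in every WT mTEC library than in any Aβ0/0 mTEC library, as were 19 of the 27 interleukin genes tested and 19.4% of all genes, and 3 of the 4 were called, where 5.32% of all genes were called in that direction. The family's cytokines are pairs of chains: IL-12 joins p35 (Il12a) and p40 (Il12b), IL-23 joins p19 (Il23a) and p40, and IL-27 joins p28 (Il27) and Ebi3. Il27 (ENSMUSG00000044701, chr7:126589010-126594941) measured 19.1, 16.8 and 22.4 TPM in WT mTEC and 0, 0.0402 and 0 TPM in Aβ0/0 mTEC, which is 0, 1 and 0 counts. It was at 1.04, 0 and 0 TPM in WT cTEC and at 0, 0 and 0.0424 TPM in Aβ0/0 cTEC. Every WT mTEC library was thus far above the 9 others, and the mean count scaled by library size was at least 123-fold higher in WT mTEC than in Aβ0/0 mTEC, taking 3 counts per library as the floor (adjusted p = 0.0352). Against WT cTEC it was higher by 6.11 ± 1.46 (SE) on the log2 scale (adjusted p = 0.0171). WT cTEC library 1 held all 15 counts of WT cTEC, and without it the fitted value against a group at 0 was 11.67 (adjusted p = 0.00185).

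Il12b (ENSMUSG00000004296, chr11:44400063-44414033) measured 3.58, 2.46 and 3.30 TPM in WT mTEC and 0 in all 3 Aβ0/0 mTEC libraries. In cTEC a single count was found in WT library 1 (0.0356 TPM) and in Aβ0/0 library 2 (0.0209 TPM), with 0 in the other 4 libraries. Il12b was therefore detected at more than 1 count only in the WT mTEC libraries, at least 38.1-fold above Aβ0/0 mTEC (adjusted p = 0.0352) and at least 38.8-fold above WT cTEC (adjusted p = 0.00315).

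Il12a (ENSMUSG00000027776, chr3:68690644-68698547) was reduced but not lost. It measured 63.1, 72.6 and 49.4 TPM in WT mTEC and 7.55, 5.20 and 8.63 TPM in Aβ0/0 mTEC, a difference of 2.90 ± 0.345 (SE) on the log2 scale (adjusted p = 0.0352), with no overlap. In cTEC it measured 1.39, 20.3 and 1.45 TPM in WT and 1.44, 3.38 and 0 TPM in Aβ0/0. WT cTEC library 2 stood above all Aβ0/0 mTEC libraries, and the WT mTEC excess over WT cTEC was 3.02 ± 0.913 on the log2 scale (adjusted p = 0.0433) and 5.02 without that library (adjusted p = 0.000596).

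Il23a (chr10:128296139-128298752) had the highest mean TPM of the 32 genes in WT mTEC, at 132, 125 and 106 TPM, and measured 50.2, 66.1 and 26.5 TPM in Aβ0/0 mTEC. These groups did not overlap, but the difference of 1.18 ± 0.373 on the log2 scale was not called by edgeR (adjusted p = 0.171), whereas DESeq2 called it (adjusted p = 0.034). Il23a measured 4.93, 4.89 and 1.78 TPM in WT cTEC and 0.784, 2.10 and 5.48 TPM in Aβ0/0 cTEC. The mTEC excess was 5.06 ± 0.302 in WT (adjusted p = 0.000138) and 4.29 ± 0.831 in Aβ0/0 (adjusted p = 0.0294), where it was 5.06 without Aβ0/0 cTEC library 3 and was not called without any other single library (adjusted p of up to 0.116).

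Among the interleukin family ligands outside the 32 genes, Ebi3, the partner chain of IL-27, was 1 of 16 tested and was called between WT and Aβ0/0 mTEC, while the other 15 were not, a share near the 5.32% of all genes called higher in WT. It measured 43.0, 47.7 and 53.3 TPM in WT mTEC and 12.03, 12.7 and 17.1 TPM in Aβ0/0 mTEC (log2 difference 1.66 ± 0.321, adjusted p = 0.0352), and 0.358 to 4.03 TPM in cTEC. Both chains of IL-27 and both chains of IL-12 were thus called higher in WT mTEC by edgeR.

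**Figure D2:**
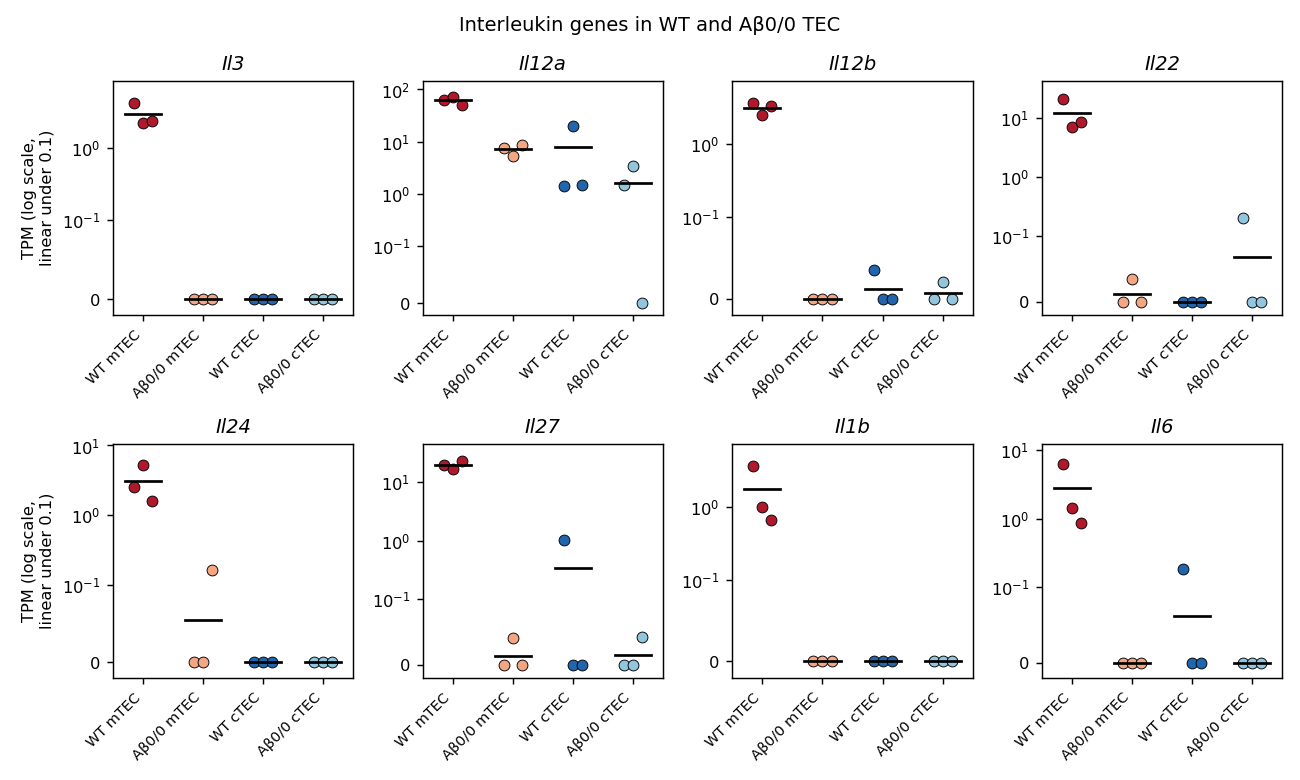
TPM of the 6 interleukin genes called between WT and Aβ0/0 mTEC and of Il1b and Il6, in each library (points, 3 a group) with the group mean (line), on a log axis that is linear under 0.1 TPM. For Il3, Il12b, Il22, Il24 and Il27 the 3 WT mTEC points lie apart from points at or near 0, whereas Il12a in Aβ0/0 mTEC is lowered to between 5.20 and 8.63 TPM.

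Promoter sequence was taken from RefSeq (GRCm38.p6), which matched 25 of the 32 genes (not Il10, Il15, Il17b, Il23a, Il24, Il27 or Il34), and is shown here for genes whose transcripts separated the mTEC genotypes. The windows are the 250 bases before an annotated transcription start, 5′ to 3′ on the strand of the gene. Il12a is shown at both of its starts: the transcript from the internal start (Il12a-202) held 49.6% of the counts of the gene in WT mTEC, and that from the upstream start (Il12a-201) held 0.718%. Capitals mark matches to 4 motifs searched on both strands: TATAAA (found in 12.4% of all 32851 promoters), the AP-1 motif TGANTCA (6.75%), the NF-kB motif GGNNTTTCC (4.93%) and the STAT motif TTCNNNGAA (7.02%).
Il12a, upstream start, chr3:68690394-68690643, plus strand: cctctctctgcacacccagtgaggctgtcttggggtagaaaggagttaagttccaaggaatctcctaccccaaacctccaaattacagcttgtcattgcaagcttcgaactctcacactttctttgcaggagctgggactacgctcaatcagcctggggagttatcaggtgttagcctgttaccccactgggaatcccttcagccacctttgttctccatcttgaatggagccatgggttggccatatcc
Il12a, internal start, chr3:68691174-68691423, plus strand: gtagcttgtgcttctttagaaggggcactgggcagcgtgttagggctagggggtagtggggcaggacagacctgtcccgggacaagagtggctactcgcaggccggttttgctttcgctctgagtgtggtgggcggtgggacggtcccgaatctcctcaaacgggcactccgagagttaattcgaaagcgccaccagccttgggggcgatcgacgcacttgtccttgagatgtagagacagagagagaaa
Il12b, chr11:44399813-44400062, plus strand: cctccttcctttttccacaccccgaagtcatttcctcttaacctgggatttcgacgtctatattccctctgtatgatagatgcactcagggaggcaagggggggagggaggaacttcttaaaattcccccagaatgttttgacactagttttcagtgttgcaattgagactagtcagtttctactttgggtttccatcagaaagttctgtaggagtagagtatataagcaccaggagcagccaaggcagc
Il3, chr11:54267280-54267529, minus strand: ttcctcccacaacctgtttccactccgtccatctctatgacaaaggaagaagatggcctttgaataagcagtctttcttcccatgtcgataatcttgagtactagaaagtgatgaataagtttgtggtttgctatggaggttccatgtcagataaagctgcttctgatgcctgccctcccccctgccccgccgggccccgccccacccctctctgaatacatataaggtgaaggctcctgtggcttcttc
Il6, chr5:30012864-30013113, plus strand: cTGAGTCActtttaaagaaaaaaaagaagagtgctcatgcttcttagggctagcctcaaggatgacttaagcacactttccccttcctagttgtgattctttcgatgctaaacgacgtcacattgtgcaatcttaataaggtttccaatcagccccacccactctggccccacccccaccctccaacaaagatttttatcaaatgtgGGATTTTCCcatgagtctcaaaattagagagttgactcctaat
The Il6 window held an AP-1 match that began 249 bases and an NF-kB match that began 43 bases before the start, whereas the Il12a, Il12b and Il3 windows held none of these letters. The window of Il22, the other called gene that was matched to these promoters, is not printed and held TATAAA 170 bases before the start. The window of the internal Il12a start had 15 CG dinucleotides, compared with 2 at the upstream start, 3 at Il12b, 5 at Il3 and a median of 6 over all promoters. Of the 33 windows of interleukin genes, 11 held TATAAA, 7 the AP-1 motif, 5 the NF-kB motif and 1 the STAT motif.

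In the IL-10 family, Il22 and Il24 were called between the mTEC groups. Il22 (ENSMUSG00000074695, chr10:118204942-118210047), whose product acts on epithelial cells, measured 21.3, 6.98 and 8.72 TPM in WT mTEC and 0, 0.0353 and 0 TPM in Aβ0/0 mTEC. It was at 0 in WT cTEC and at 0.207, 0 and 0 TPM in Aβ0/0 cTEC. WT mTEC was at least 83.0-fold above Aβ0/0 mTEC (adjusted p = 0.0352) and at least 84.6-fold above WT cTEC (adjusted p = 0.00254), although WT mTEC library 1 held more than the other 2 WT mTEC libraries together. Il24 (ENSMUSG00000026420, chr1:130882074-130887454) measured 2.51, 5.30 and 1.58 TPM in WT mTEC, 0, 0 and 0.163 TPM in Aβ0/0 mTEC and 0 in all 6 cTEC libraries. It was at least 22.9-fold higher in WT than in Aβ0/0 mTEC (adjusted p = 0.036) and at least 23.4-fold higher than in WT cTEC (adjusted p = 0.00695), bounds that were 14.2-fold and 14.5-fold without WT mTEC library 2.

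Il10, which restrains inflammatory responses, did not follow this pattern. It measured 17.2, 9.12 and 12.4 TPM in WT mTEC and 25.7, 21.3 and 8.91 TPM in Aβ0/0 mTEC, and these groups overlapped. In cTEC it measured 6.38, 0 and 0 TPM in WT and 1.26, 0.0585 and 0.0320 TPM in Aβ0/0. The mTEC excess in Aβ0/0 was 5.75 ± 1.53 on the log2 scale (adjusted p = 0.0768), and without Aβ0/0 cTEC library 1 it was 8.59 and was called (adjusted p = 0.0320). Il19 measured 0.263, 3.64 and 1.89 TPM in WT mTEC and was at 0 in the other 9 libraries.

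Of the common beta chain cytokines, Il3 (ENSMUSG00000018914, chr11:54265303-54267277), a growth factor of haematopoietic progenitors and mast cells, measured 4.32, 2.24 and 2.36 TPM in WT mTEC, from 37, 32 and 31 counts. It was at 0 in all the other 9 libraries. WT mTEC was at least 10.3-fold above Aβ0/0 mTEC (adjusted p = 0.0352) and at least 10.5-fold above WT cTEC (adjusted p = 0.00707). Il5, the eosinophil growth factor, measured 9.64, 13.2 and 15.6 TPM in WT mTEC and 0.530, 1.85 and 11.2 TPM in Aβ0/0 mTEC. Aβ0/0 mTEC library 3 lay within the WT range and the other 2 lay below it. In cTEC, Il5 measured 0.788, 0 and 0.559 TPM in WT and 1.82, 0.0491 and 3.65 TPM in Aβ0/0, and the mTEC excess in WT was 4.86 ± 1.18 on the log2 scale (adjusted p = 0.0183) and 4.24 without WT cTEC library 2.

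In the IL-1 family, the receptor antagonist and the agonists were expressed at different levels. Il1rn (chr2:24336853-24351494), which blocks the IL-1 receptor, measured 121, 118 and 115 TPM in WT mTEC and 58.6, 64.7 and 69.5 TPM in Aβ0/0 mTEC. The WT and Aβ0/0 values did not overlap, with a log2 difference of 0.84 ± 0.257 (adjusted p = 0.153). It measured 5.59, 6.56 and 6.38 TPM in WT cTEC and 1.44, 12.1 and 7.77 TPM in Aβ0/0 cTEC. The mTEC excess was 4.26 ± 0.341 in WT (adjusted p = 0.000343) and 3.59 ± 0.766 in Aβ0/0 (adjusted p = 0.039), where it was 4.38 and no longer called without Aβ0/0 cTEC library 2. Among the 6 refits without 1 library the Aβ0/0 call of Il1rn was kept only without Aβ0/0 cTEC library 1, with an adjusted p of up to 0.137.

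The agonists Il1a and Il1b were much lower. Il1a measured 7.24, 4.28 and 1.69 TPM in WT mTEC and 2.26, 0 and 0.309 TPM in Aβ0/0 mTEC, with overlap, and at most 0.202 TPM in cTEC. Its mTEC excess in WT was 5.94 ± 1.27 on the log2 scale (adjusted p = 0.0107) and 7.98 without WT cTEC library 2. Il1b measured 3.60, 0.994 and 0.664 TPM in WT mTEC and was at 0 in all the other 9 libraries. It was at least 14.1-fold higher in WT than in Aβ0/0 mTEC (adjusted p = 0.0507) and at least 14.3-fold higher than in WT cTEC (adjusted p = 0.0112), bounds that were 7.13-fold and 7.27-fold without WT mTEC library 1. Even in WT mTEC the antagonist thus stood above the sum of the agonists in each library.

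Il18, a cytokine cleaved by caspase-1, varied by library rather than by genotype. It measured 6.91, 7.54 and 8.07 TPM in WT mTEC, 9.61, 0 and 20.4 TPM in Aβ0/0 mTEC, 2.36, 0 and 3.32 TPM in WT cTEC and 2.09, 0 and 3.23 TPM in Aβ0/0 cTEC. The 3 libraries at 0 all carried replicate number 2, and the replicate 2 library of WT mTEC did not share this.

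Il33 (ENSMUSG00000024810, chr19:29925114-29960718), an alarmin of the IL-1 family, had the highest mean TPM of the 32 genes in both cTEC groups. It measured 163, 205 and 92.8 TPM in WT cTEC and 118, 76.4 and 231 TPM in Aβ0/0 cTEC. In mTEC it measured 3.45, 5.14 and 6.49 TPM in WT and 1.51, 0.637 and 8.02 TPM in Aβ0/0. All 6 cTEC libraries lay above all 6 mTEC libraries, and mTEC was lower than cTEC by a log2 difference of -4.80 ± 0.362 in WT (adjusted p = 0.000294) and -5.17 ± 0.969 in Aβ0/0 (adjusted p = 0.0263). The Aβ0/0 call ended without Aβ0/0 cTEC library 1, 2 or 3 or Aβ0/0 mTEC library 1 or 2, with adjusted p of up to 0.0794, and the value was -6.90 without Aβ0/0 mTEC library 3.

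Nearly all Il33 counts came from the transcript with the upstream start, Il33-202, which held 97.4% of the counts of the gene in WT cTEC and 100% in Aβ0/0 cTEC, whereas the internal start (Il33-201) held 2.46% in WT cTEC and 13.2% in WT mTEC. The 250 bases before both starts are shown for comparison, with TATAAA in capitals.
Il33, upstream start, chr19:29924863-29925112, plus strand: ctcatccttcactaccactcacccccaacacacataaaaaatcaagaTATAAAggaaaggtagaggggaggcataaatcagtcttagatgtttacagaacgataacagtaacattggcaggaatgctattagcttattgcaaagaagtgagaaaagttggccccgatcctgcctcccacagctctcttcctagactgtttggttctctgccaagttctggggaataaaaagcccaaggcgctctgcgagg
Il33, internal start, chr19:29945540-29945789, plus strand: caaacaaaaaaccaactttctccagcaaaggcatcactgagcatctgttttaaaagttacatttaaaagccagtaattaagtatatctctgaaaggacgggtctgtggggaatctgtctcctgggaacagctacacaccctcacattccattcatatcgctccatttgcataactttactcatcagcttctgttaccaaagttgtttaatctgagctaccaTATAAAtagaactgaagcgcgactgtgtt
The match began 203 bases before the upstream start, which carried the counts, and 29 bases before the internal start, which carried few.

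Il34, a ligand of the receptor Csf1r, followed Il33 in its distribution. It measured 41.2, 35.0 and 57.0 TPM in WT cTEC and 61.7, 28.1 and 45.8 TPM in Aβ0/0 cTEC, against 5.61, 6.33 and 4.51 TPM in WT mTEC and 1.75, 0 and 0.676 TPM in Aβ0/0 mTEC. Part of the cTEC level was noncoding, with Il34-205 at 3.54, 2.88 and 35.5 TPM in WT cTEC. The coding Il34-201 measured 27.0, 24.9 and 11.2 TPM there, 38.4, 11.9 and 23.6 TPM in Aβ0/0 cTEC and at most 4.92 TPM in mTEC. The mTEC and cTEC values did not overlap in either genotype, with a log2 difference of -2.83 ± 0.373 in WT (adjusted p = 0.00195) and -5.61 ± 1.38 in Aβ0/0 (adjusted p = 0.0587). Without Aβ0/0 mTEC library 2 the Aβ0/0 difference was called (adjusted p = 0.0364), and without library 1 it was -7.33. The mTEC groups did not overlap either.

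Il16, a chemoattractant of CD4+ cells, measured 11.0, 9.73 and 2.96 TPM in WT cTEC, 17.2, 13.8 and 5.92 TPM in Aβ0/0 cTEC, 3.04, 1.18 and 3.48 TPM in WT mTEC and 3.38, 2.14 and 2.00 TPM in Aβ0/0 mTEC. The subsets overlapped in WT and were separated in Aβ0/0, where mTEC differed from cTEC by -2.17 ± 0.618 on the log2 scale (adjusted p = 0.0941). The 14 thymocyte markers summed to 277 to 641 TPM in WT cTEC and 754 to 914 TPM in Aβ0/0 cTEC, above the 84.9 to 181 TPM of WT mTEC and 39.1 to 145 TPM of Aβ0/0 mTEC, with none at 0 throughout a group. The 7 fibroblast markers summed to 1652 to 2546 TPM in cTEC and to 115 to 265 TPM in mTEC, again with none at 0 throughout a group. Most of the fibroblast sum was Dcn, at 1569 to 2363 TPM in cTEC. Dcn, Col1a2, Col3a1 and Lum were called higher in WT cTEC than in WT mTEC, whereas Pdgfra (mean 0.892 TPM in WT mTEC and 0.690 TPM in WT cTEC), Pdgfrb (3.69 and 2.501 TPM) and Col1a1 (8.11 and 6.59 TPM) were not called. The thymocyte sum and these 4 fibroblast markers thus moved with the higher cTEC levels of Il33 and Il34, and their part in these levels was not tested.

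**Figure D3:**
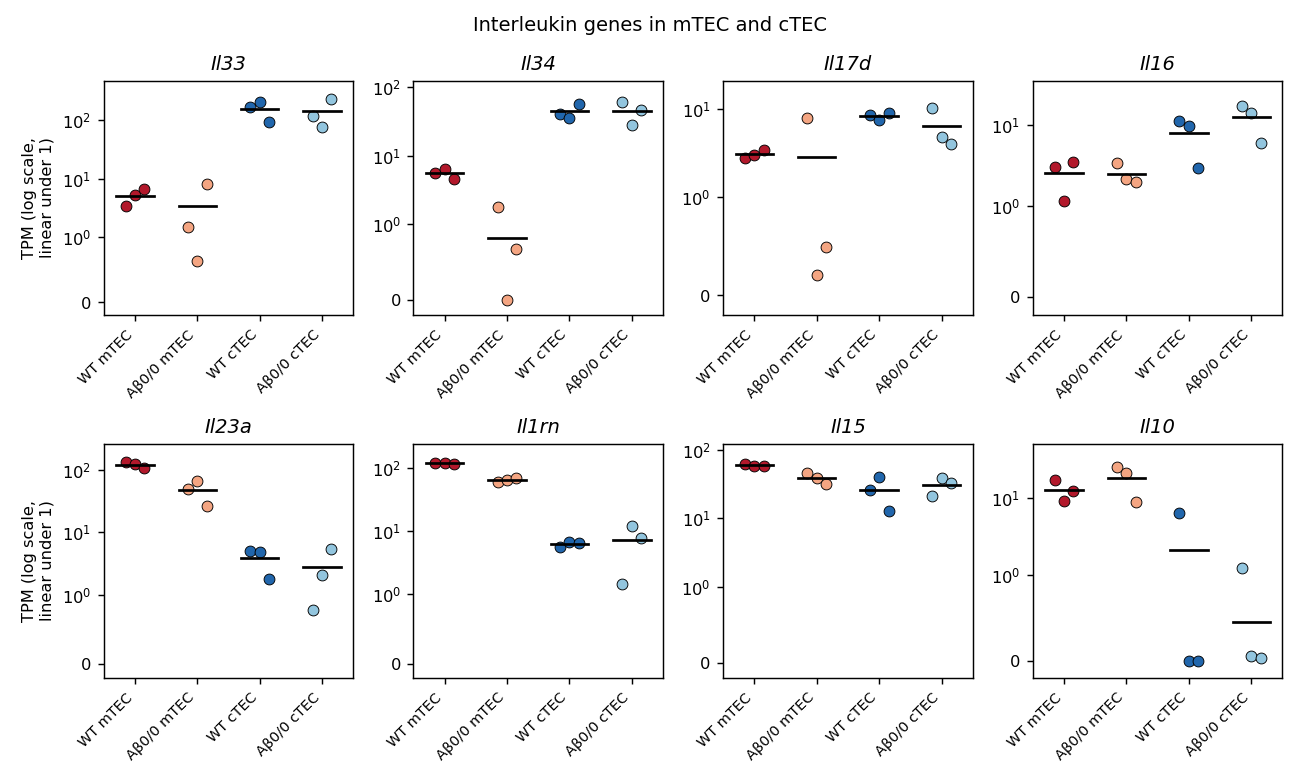
TPM of 8 interleukin genes in each library (points, 3 a group) with the group mean (line), on a log axis that is linear under 1 TPM. Il33 and Il34 are higher in all 6 cTEC libraries, Il23a and Il1rn are higher in all 6 mTEC libraries, and Il10 and Il15 show no called difference between genotypes.

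Among those of the 32 genes that encode cytokines of the common gamma chain and their relatives, Il15 had the highest mean TPM in every group. Il15, a survival factor of natural killer and CD8+ cells, measured 61.2, 58.7 and 57.4 TPM in WT mTEC and 46.0, 38.1 and 31.7 TPM in Aβ0/0 mTEC. It measured 26.1, 39.4 and 12.6 TPM in WT cTEC and 21.0, 39.0 and 32.4 TPM in Aβ0/0 cTEC. The WT mTEC libraries lay above all others, with a log2 excess over WT cTEC of 1.05 ± 0.267 (adjusted p = 0.0215), and the Aβ0/0 subsets overlapped. Il9 measured 35.1, 21.6 and 19.9 TPM in WT mTEC, 5.73, 0 and 0 TPM in Aβ0/0 mTEC, 0, 0 and 2.46 TPM in WT cTEC and 0 in Aβ0/0 cTEC. The mTEC groups did not overlap, but the genotype difference was not called by edgeR (adjusted p = 0.458) except without Aβ0/0 mTEC library 1, which held all its Aβ0/0 mTEC level (adjusted p = 0.0298), and the WT mTEC excess over WT cTEC was 4.58 ± 1.62 on the log2 scale (adjusted p = 0.0749). WT cTEC library 3 held all WT cTEC counts of Il9, and without it the fitted value was 10.91 and was called (adjusted p = 0.000577).

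The type 2 cytokines Il4 and Il13 lie beside Il5 and Il3 in the order Il4, Il13, Il5 and Il3 on chromosome 11. Il13 measured 11.5, 6.61 and 6.35 TPM in WT mTEC, 1.68, 1.35 and 0.0407 TPM in Aβ0/0 mTEC, 0, 0.548 and 0.255 TPM in WT cTEC and 0 in Aβ0/0 cTEC. Its WT mTEC excess over WT cTEC was 4.90 ± 1.14 on the log2 scale (adjusted p = 0.0154) and 5.58 without WT cTEC library 2. Il4 measured 11.2, 22.3 and 7.88 TPM in WT mTEC, 0.515, 7.09 and 0 TPM in Aβ0/0 mTEC, 0.453, 0.443 and 0.280 TPM in WT cTEC and 1.40, 0.752 and 0.551 TPM in Aβ0/0 cTEC. The WT mTEC excess over WT cTEC was 5.33 ± 0.860 (adjusted p = 0.00406) and 4.70 without WT mTEC library 2. All 4 genes of this cluster had every WT mTEC library above every WT cTEC library, as had 22 of the 27 interleukin genes tested and 28.4% of all genes. Il2 and Il21 stayed below a mean of 1 TPM in every group, with at most 0.862 and 1.77 TPM in a library, both in WT mTEC.

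The transcripts assigned to Il4 differed between groups. In cTEC all its counts (100%) were on the noncoding processed transcript Il4-202, which held 13.1% in WT mTEC. The coding transcripts were thus at 0 in the 6 cTEC libraries, and in Aβ0/0 mTEC they were found in library 2 alone (6.10 TPM of Il4-201).

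Il6 and Il11, which signal through the shared chain gp130, were low. Il6, an inducer of the acute phase response, measured 6.26, 1.42 and 0.873 TPM in WT mTEC, 0.183, 0 and 0 TPM in WT cTEC and 0 in all 6 Aβ0/0 libraries. It was at least 17.8-fold higher in WT than in Aβ0/0 mTEC (adjusted p = 0.0573) and at least 18.1-fold higher than in WT cTEC (adjusted p = 0.0314). WT mTEC library 1 carried much of this, and without it these bounds were 8.06-fold and 8.22-fold. Il11 measured 2.18, 1.77 and 1.54 TPM in WT mTEC, 0.282, 0.934 and 0.377 TPM in Aβ0/0 mTEC, 1.53, 1.85 and 0.0507 TPM in WT cTEC and 2.33, 0 and 0.0471 TPM in Aβ0/0 cTEC. It separated the mTEC genotypes without a call and overlapped between the subsets.

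The IL-17 family had no call between genotypes with all libraries. Il17c, an epithelial cytokine, measured 2.77, 5.28 and 4.82 TPM in WT mTEC and 5.23, 0 and 0 TPM in Aβ0/0 mTEC, with 0.315, 0 and 0 TPM in WT cTEC and 0 in Aβ0/0 cTEC. Without Aβ0/0 mTEC library 1, which held all its Aβ0/0 mTEC level, Il17c was called higher in WT mTEC (adjusted p = 0.0298). It was at least 18.7-fold higher in WT mTEC than in WT cTEC (adjusted p = 0.0194). Il17d measured 8.57, 7.48 and 9.02 TPM in WT cTEC and 2.77, 2.99 and 3.43 TPM in WT mTEC, a log2 difference of -1.42 ± 0.544 (adjusted p = 0.0956). In Aβ0/0 it measured 10.3, 4.77 and 4.03 TPM in cTEC and 7.87, 0.212 and 0.498 TPM in mTEC, where the subsets overlapped.

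Il17b measured 18.7, 15.4 and 15.7 TPM in WT mTEC and 4.85, 8.43 and 9.04 TPM in WT cTEC, but 1.80, 5.07 and 0 TPM in Aβ0/0 mTEC and 9.20, 11.95 and 7.47 TPM in Aβ0/0 cTEC. The subsets were thus separated in opposite orders in the genotypes, and neither difference was called with all libraries. The WT difference was called without WT cTEC library 3. Il17f measured 5.11, 6.34 and 6.10 TPM in WT mTEC, 4.23, 4.64 and 4.56 TPM in Aβ0/0 mTEC, 1.80, 0.502 and 2.32 TPM in WT cTEC and 0.769, 2.22 and 2.99 TPM in Aβ0/0 cTEC. Its WT mTEC excess over WT cTEC was 2.11 ± 0.893 on the log2 scale (adjusted p = 0.126), and without WT cTEC library 3 it was 2.93 and was called (adjusted p = 0.0302). Il17a was found in WT mTEC libraries 2 and 3 alone, at 0.737 and 0.399 TPM.

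For Il17f the level of the gene did not reflect the coding transcripts. The noncoding processed transcript Il17f-203 held 54.4% of its counts in WT mTEC, 87.1% in Aβ0/0 mTEC, 90.5% in WT cTEC and 100% in Aβ0/0 cTEC. Coding Il17f-202 measured 2.76, 1.24 and 1.39 TPM in WT mTEC and at most 0.921 TPM elsewhere. For Il12a, by contrast, the coding transcript Il12a-202 itself measured 26.3, 24.5 and 20.5 TPM in WT mTEC and 2.53, 2.25 and 4.35 TPM in Aβ0/0 mTEC, with no overlap, beside transcripts that retain introns.

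**Figure D4:**
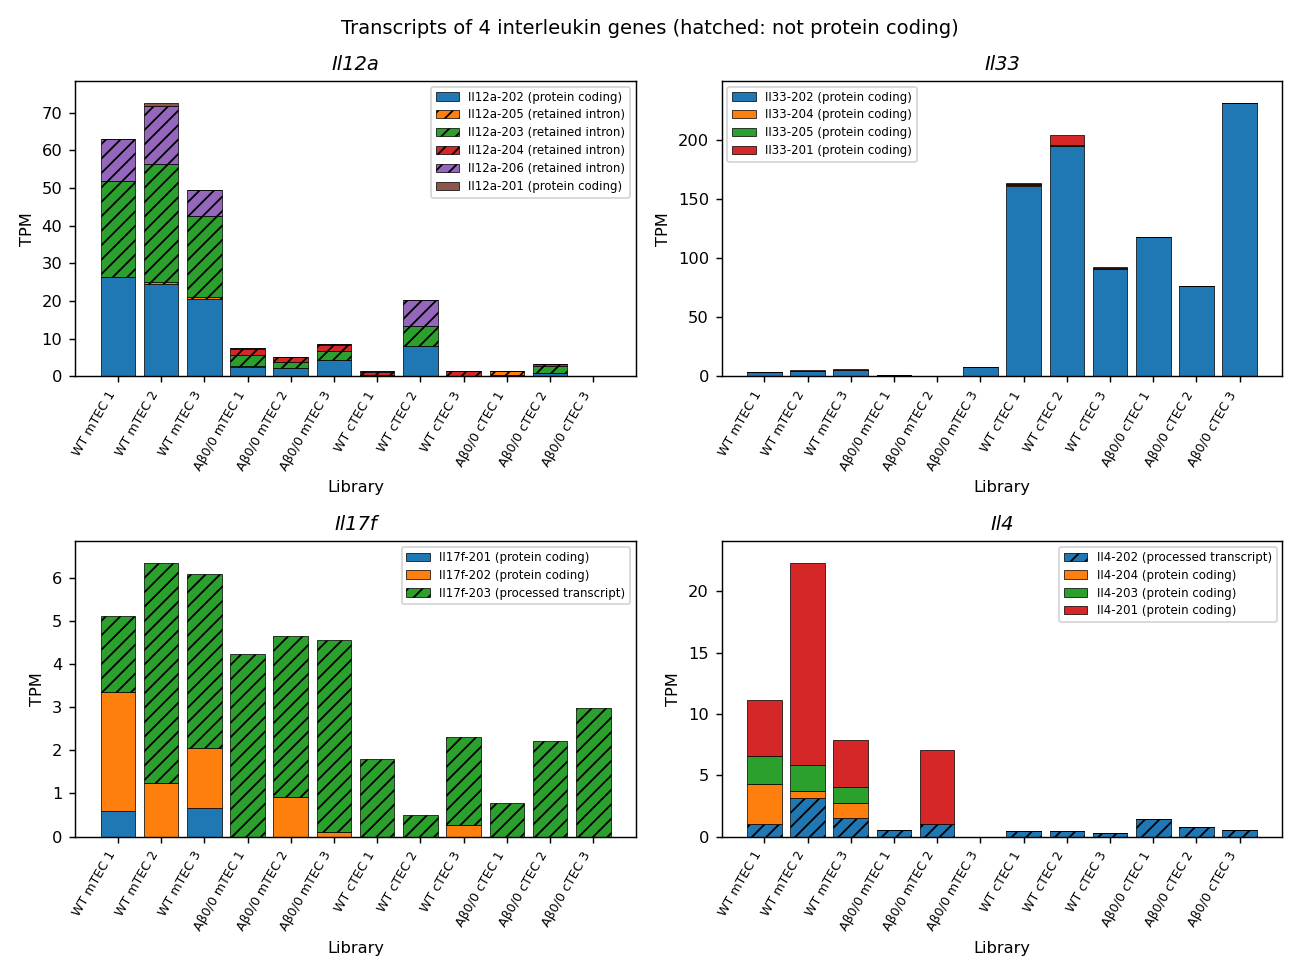
TPM of each annotated transcript of Il12a, Il33, Il17f and Il4, stacked for each of the 12 libraries, with hatched bars for transcripts that do not code for protein. The coding Il12a-202 is lower in Aβ0/0 than in WT mTEC, Il33 is nearly all Il33-202, and the cTEC bars of Il4 are hatched throughout.

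Il31, a cytokine of itch that signals through Osmr, measured 16.3, 5.63 and 8.62 TPM in WT mTEC and 0, 4.62 and 0 TPM in Aβ0/0 mTEC, and was at 0 in all 6 cTEC libraries. It was at least 48.5-fold higher in WT mTEC than in WT cTEC (adjusted p = 0.0038), and the mTEC genotypes did not overlap.

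Of the 42 interleukin receptor and soluble inhibitor genes tested between WT and Aβ0/0 mTEC, 2 were called, both higher in WT, which is near the 5.32% of all genes called in that direction, and the median log2 difference was 0.048 against 0.0026 over all genes. Il2rg, the common gamma chain, measured 201, 177 and 157 TPM in WT mTEC and 58.2, 48.1 and 46.5 TPM in Aβ0/0 mTEC (log2 difference 1.71 ± 0.177, adjusted p = 0.0352). Il9r, the receptor of the product of Il9, measured 13.0, 4.96 and 4.97 TPM in WT mTEC and 0.524, 0.279 and 0.238 TPM in Aβ0/0 mTEC (3.93 ± 0.615, adjusted p = 0.0352). Of 11 genes of the inflammasome and of IL-1 family processing, 1 was called: Gsdmc, a pore-forming gasdermin, at 1.34, 2.00 and 1.95 TPM in WT mTEC and 0 in the other 9 libraries, with a median log2 difference over the 11 genes of 0.35. None of 22 genes of signal transduction below interleukin receptors was called by edgeR, 5 reached an unadjusted p under 0.05 beside 15.3% of all genes, all 5 with the higher level in Aβ0/0, and the median of the 22 was -0.20. In cTEC no gene of these 4 lists was called between the genotypes by edgeR, and none reached an unadjusted p under 0.05.

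In WT mice, 16 of the 42 receptor genes tested were called higher in mTEC and 5 higher in cTEC, beside 18.0% and 8.81% of all genes, with a median log2 difference of 1.301 against 0.062 over all genes. The corresponding counts were 8 and 0 of 12 inflammasome and processing genes (median 1.84) and 6 and 1 of 22 signal transduction genes (median 0.10), the last near the shares of all genes.

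Some markers of granulocytes, mast cells, dendritic cells and macrophages were also called higher in WT mTEC than in Aβ0/0 mTEC, although the cells were sorted as CD45-. Over all genes, 5.32% were called in that direction. Granulocyte markers, of which S100a8 was the most abundant, summed to 1405 to 2007 TPM in WT mTEC, 187 to 426 TPM in Aβ0/0 mTEC, 24.3 to 510.5 TPM in WT cTEC and 27.1 to 80.7 TPM in Aβ0/0 cTEC. Of the 7 tested, 3 (Ngp, S100a8 and Retnlg) were called higher in WT mTEC. Ngp, Elane and Retnlg were at 0 in all Aβ0/0 mTEC libraries, but Elane had only 6, 6 and 4 counts in WT mTEC. Ltf was at a mean of 65.9 TPM in WT and 75.7 TPM in Aβ0/0 mTEC. Mast cell markers summed to 28.5 to 57.3 TPM in WT mTEC and 0 to 17.7 TPM in Aβ0/0 mTEC, with 2 of 4 called (Mcpt4 and Cma1) Cpa3 and Mcpt4 at 0 in Aβ0/0 mTEC, and Fcer1a at a mean of 2.19 TPM in WT and 5.90 TPM in Aβ0/0 mTEC, all of it in library 3. Dendritic cell and macrophage markers summed to 649 to 715 TPM in WT mTEC and 114 to 754 TPM in Aβ0/0 mTEC, and these sums overlapped since Aβ0/0 mTEC library 1 held the highest. Most of each sum was Lyz2, at 585 to 626 TPM in WT mTEC and 740, 104 and 107 TPM in Aβ0/0 mTEC, so the overlap was carried by Lyz2. Of the 12 tested, 3 were called (Itgax, Adgre1 and C1qc). Itgax, Clec9a and Adgre1 were at 0 in Aβ0/0 mTEC, but Clec9a had only 1, 12 and 0 counts in WT mTEC. The 5 B cell markers summed to 24.1 to 39.6 TPM in WT mTEC and 6.96 to 29.5 TPM in Aβ0/0 mTEC, with overlap, none called by edgeR and 2 at an unadjusted p under 0.05. None of the 14 thymocyte markers was called between the mTEC groups by edgeR, and none had an unadjusted p under 0.05. The mTEC markers Aire and Cd86 were called in the same direction, as was 1 of the 8 cTEC markers, the chemokine Ccl25, at a mean of 550 TPM in WT mTEC and 208 TPM in Aβ0/0 mTEC. Of the 9 mTEC markers, 7 had an unadjusted p under 0.05, beside 15.3% of all genes in either direction, and their median log2 difference was 0.63. The called interleukin genes thus moved with Aire, Cd86, Ccl25 and the 8 called markers of blood cell types, and the part of each in the interleukin levels was not tested. In bulk libraries, fewer cells of a type and less RNA per cell cannot be told apart.

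**Figure D5:**
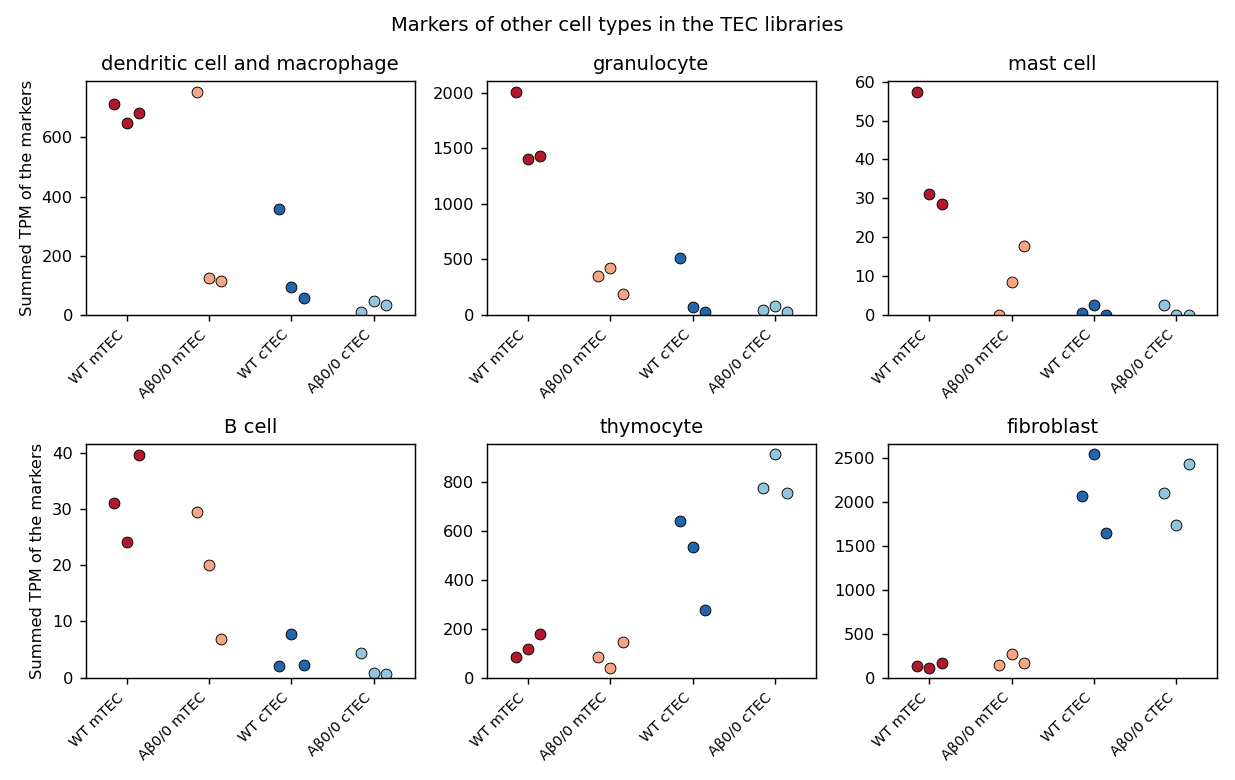
Summed TPM of the markers of 6 other cell types in each library (points, 3 a group). Granulocyte and mast cell sums are highest in the 3 WT mTEC libraries, whereas thymocyte and fibroblast sums are highest in cTEC.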

How the data were processed

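The authors quantified transcripts with kallisto 0.43 after bcl2fastq 2.20.0 and Trim Galore (mm10, per the labels), and deposited estimated counts and TPM for 109282 transcripts in each of 12 libraries, without pooling libraries. They also deposited a table of regularised log2 (rlog) values for 34677 genes. Here estimated counts and TPM were summed per gene over the 107987 transcripts matched to GENCODE M21 (GRCm38); unmatched transcripts held up to 0.512% of counts. Summed counts were rounded and tested with edgeR 4.0.16 (TMM, filterByExpr, robust quasi-likelihood test), using the libraries of the groups compared, or all 12 for the interaction; Benjamini-Hochberg adjusted p under 0.05 over all genes tested was a call. Errors beside log2 values are standard errors. DESeq2 1.42.0, limma 3.58.1 on rlog values and the other alternatives are in the closing section. The test was checked on simulated data. The 32 genes, the gene lists and the markers were chosen with earlier results of these data known. Genes were described in every library where called in a comparison or at a mean of 1 TPM or more in a group, which held for 28; folds were given where called, or at an unadjusted p under 0.05 without overlap. In the lists, genes called between genotypes were named, and the older symbols of Il36a, Il36b and Il36g were matched through RefSeq, whereas Il36rn was not matched. cTEC and mTEC with the same genotype and number came from 1 sorting of the same pool in the study's methods, which pairs them; their correlations of deviations were 0.038 to 0.24. The study lists the sorting yields of both genotypes under each number; whether they were sorted together is not given in the sources used here, and WT and Aβ0/0 libraries of a number had correlations of -0.039 to 0.245. Libraries are separate pools of mice. Folds given as "at least" take 3 counts per library as the floor, which covers counting error only.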

Additional observations from a re-analysis of the deposited data

Results flagged for a closer look

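For Il17b, all 3 mTEC libraries lay above all 3 cTEC libraries in WT and below them in Aβ0/0, so the subset difference ran in opposite directions in the genotypes. The edgeR interaction was 2.87 on the log2 scale and was not called (adjusted p = 0.863), and Aβ0/0 mTEC library 3 had no counts. For Il4, all 3 WT mTEC libraries lay above those of Aβ0/0, whereas all 3 WT cTEC libraries lay below those of Aβ0/0, at 3 to 4 against 6 to 11 counts. Its interaction was 3.23 and was not called either (adjusted p = 0.875), and its cTEC counts were on the noncoding transcript Il4-202. Groups of 3 libraries were not examined for single outlying values.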

How the results depend on the processing

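Counts of called interleukin genes depended on the fit, and with 3 libraries a group the genotype calls in mTEC sat close to the threshold. Between WT and Aβ0/0 mTEC (6 calls), there were 2 with no filter on low counts, 0 with a mean of at least 10 counts, 10 with DESeq2, 0 with all 12 libraries, 8 with limma on rlog values (Il24 ended, and Il9, Il13 and Il34 were gained), and 0 to 9 without 1 library. Over all genes, the 1054 calls became 27, 11, 1782, 20 and 1315 in those 5 settings and 0 to 2377 without 1 library. Between WT and Aβ0/0 cTEC there were 0 in every alternative. Between mTEC and cTEC of WT (19 calls), all 12 libraries gave 9, and leaving out 1 library gave 12 to 25. Between mTEC and cTEC of Aβ0/0 (3 calls), DESeq2 gave 6, all 12 libraries gave 6, limma on rlog values gave 5 (2042, 1819 and 1398 over all genes in place of 878), and leaving out 1 library gave 0 to 2. For the difference of the genotype effects (0 calls), DESeq2 gave 1 and limma on rlog values gave 6 (277 and 941 over all genes in place of 2), and leaving out 1 library gave 0. With the replicate number as a block, WT against Aβ0/0 mTEC gave 0 calls among the interleukin genes and over all genes, and whether the genotypes of a number were sorted together is not given in the sources used here; with the pool as a block, WT mTEC against cTEC gave 15, Aβ0/0 gave 2 and the interaction gave 0. Refits of 47 log2 values (41 of the interleukin genes by the rule for folds, the Il17b and Il4 interactions, and Ebi3, Il2rg, Il9r and Gsdmc between the mTEC groups, the last 4 added after seeing the data) gave 636 values, of which none reversed its sign, 141 moved below the threshold and 23 above it. The cause of these moves was not tested. In genes at 0 in a group, fitted folds change with the prior count and rlog shrinks them, so bounds were given. RLE size factors gave 6, 0, 19, 3 and 0 calls in the order of the comparisons above.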
